A study of Rattus norvegicus with 9 samples.

Results

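The acute response of rat alveolar macrophages to nitrogen mustard (NM) was read as the difference between 3 libraries made 1 day after NM and 3 libraries from rats given phosphate-buffered saline (PBS), 6 of the 9 libraries of the study. All animals were male Wistar rats, labelled with a starting weight between 225 and 250 g, and NM (mechlorethamine hydrochloride, 0.125 mg/kg) or PBS was given into the trachea under isoflurane. The PBS libraries carry the label 0 days of exposure, and no label gives the time at which those rats were sampled. Macrophages were collected from the lungs by massage, with no sort named, and the design text calls the 3 libraries of a group biological replicates, here numbered 0, 1 and 2. RNA sequencing gave FPKM, fragments counted per kilobase of transcript and scaled to the size of the library, and 9694 of 17086 genes reached an FPKM of 1 in at least 3 of the 6 libraries and were tested. A gene is called higher or lower where limma's test on log2(FPKM + 1) gave a Benjamini-Hochberg adjusted p under 0.05.

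Alveolar macrophages live in the air spaces, where they clear particles, dead cells and surfactant and hold inflammation in check. NM is a bifunctional alkylating agent that cross-links DNA and proteins, and a lung exposed to it passes through epithelial injury, oedema and an influx of white blood cells from the circulation. Macrophages collected from such a lung can include resident cells, monocytes that have just entered and cells of other types carried along, so a bulk library averages over all of them. Fewer cells of a type and less RNA per cell cannot be told apart in such a library.

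Between 12112 and 12516 transcript rows lay above 0 in each library. The upper quartile of the rows was 19.1 to 19.6 FPKM in all libraries. The summed FPKM differed more, from 709397 to 776058 after NM and from 789477 to 969540 in PBS, so summed levels below are not shares of an equal total. Depth could be judged only relative to NM replicate 0, from how low FPKM values scale between libraries, and came to 1 to 1.47 after NM and 1.42 to 2.58 in PBS, so the NM libraries were on the whole the shallower ones. Pairs of libraries of the same group had Spearman's rho between 0.964 and 0.983 over the genes tested, and pairs from different groups between 0.914 and 0.955, as a description, since genes are not independent replicates. There were 38 transcript rows where 1 library was listed at 0 while another passed 20 FPKM, so a single 0 can be a failed estimate.

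The response was lopsided in size. Of the 9694 genes 587 were higher (6.06%) and 506 lower (5.22%), 11.3% in all, with a median log2 fold change of 1.33 for the former and -0.76 for the latter. A change of more than 2-fold was seen in 415 of the higher genes (4.28% of those tested) and 71 of the lower ones (0.732%). Beyond 4-fold there were 142 higher genes and 0 lower ones, and 26 higher genes passed 16-fold. The 3 NM values lay above the 3 PBS values in 1470 genes (15.2%) and below them in 1770 (18.3%), most of them without a call. A core of 268 higher and 63 lower genes (2.76% and 0.65%) was called in the full fit and in each of the 6 fits without 1 library. The counts of higher genes without a single library ran from 306 without NM replicate 0 to 561 without PBS replicate 2, with 352 without PBS replicate 1 and 385 without NM replicate 1. The counts of lower genes ran from 77 without PBS replicate 1 and 88 without NM replicate 0 to 684 without PBS replicate 2, with 239 without NM replicate 1 and 309 without NM replicate 2. Lower genes over 2-fold numbered 30 without NM replicate 0, 40 without PBS replicate 1, 117 without NM replicate 2 and 120 without PBS replicate 2. A gene named below was called in the full fit and in each of those 6 fits unless the text says otherwise.

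The direction of change followed the level of the gene. The higher genes had a median of 2.44 FPKM in PBS and 10.5 after NM, and the lower genes 68.8 and 39.3, beside a median over all genes tested of 17.5 in PBS. In 5 equal bins of mean log2(FPKM + 1), from lowest to highest, 14.8%, 6.55%, 4.44%, 2.42% and 2.11% of genes were higher, whereas 0.6704%, 2.17%, 3.46%, 6.81% and 12.996% were lower. Of the 286 higher genes in the lowest bin 151 reached the FPKM filter through the NM libraries alone, which makes a rise their only possible call. There were 71 genes with a mean under 1 FPKM in PBS and at least 5 after NM, and 1 with the reverse. The pattern depended on the scaling at low and at high levels: after quantile normalisation, which gives every library the same distribution, 8.41% of the lowest and 5.21% of the highest bin were higher, and 2.99% and 5.72% were lower. The median log2 fold change of the lowest bin was then -0.13, against 0.18 in the main fit and 0.21 with median-of-ratios scaling. With median-of-ratios scaling the highest bin had 2.37% higher and 10.4% lower genes. The part of depth in these shares was not tested.

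**Figure D1:**
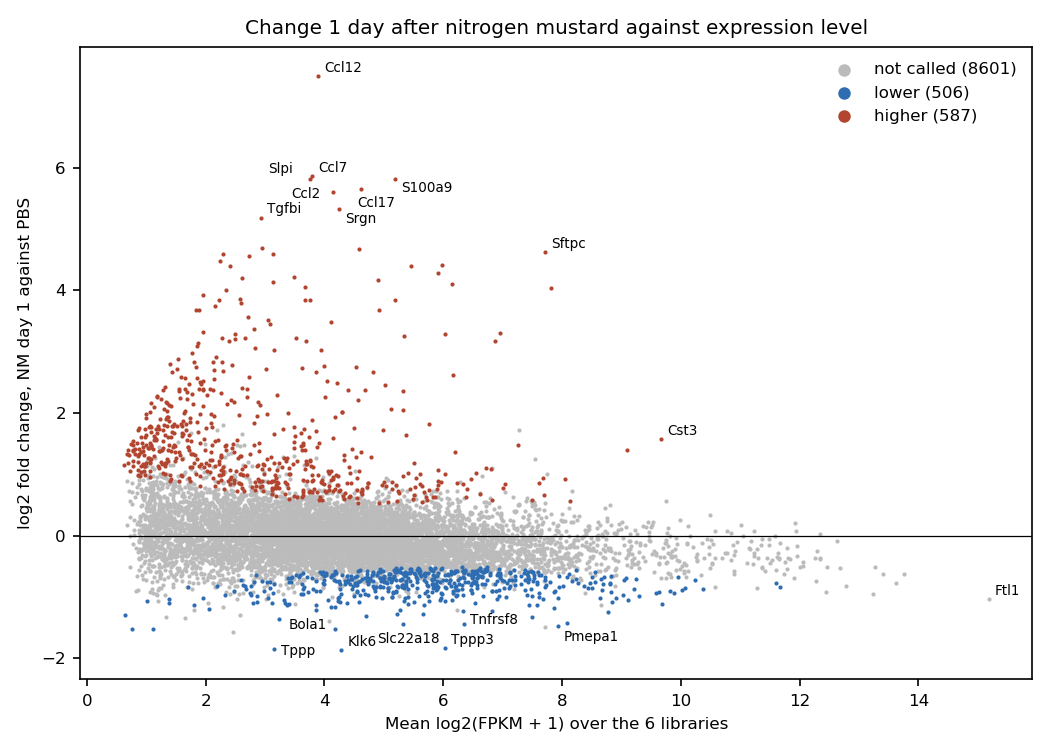
Each point is 1 of the 9694 genes, with its mean log2(FPKM + 1) over the 6 libraries on the x axis and the log2 fold change of NM day 1 against PBS on the y axis. The 587 higher genes reach a log2 fold change of 7.50 (Ccl12) and lie mainly at low and middle levels, while the 506 lower ones lie in a narrower band, down to -1.87 for Klk6, and reach into the high levels.

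The largest rise was that of Ccl12, a CC chemokine that draws monocytes, listed at 208, 220.1 and 171 FPKM after NM and 0.324, 0 and 0 FPKM in PBS (log2 fold change 7.50 ± 0.19 SE, adjusted p = 2.36e-08). It went from the edge of detection to a level shared by all 3 NM libraries. Its neighbours in function Ccl7 and Ccl2, ligands of the same monocyte receptor, were also among the largest rises. Ccl7 measured 142, 124 and 66.8 FPKM after NM and 1.34, 0.264 and 1.04 FPKM in PBS (log2 fold change 5.87 ± 0.31 SE, adjusted p = 5.00e-06). Ccl2 measured 181, 146 and 69.7 FPKM after NM and 0.598, 1.38 and 3.24 FPKM in PBS (log2 fold change 5.61 ± 0.40 SE, adjusted p = 2.35e-05). In both, NM replicate 2 was the lowest NM library and still far above every PBS value. Ccl17 and Ccl22, which attract T cells through Ccr4, differed in log2 by 5.66 ± 0.30 SE and 4.60 ± 0.26 SE. Slpi, the secretory leukocyte protease inhibitor that blocks neutrophil elastase, measured 81.5, 116 and 107 FPKM after NM and 0.503, 1.04 and 0.909 FPKM in PBS (log2 fold change 5.81 ± 0.20 SE, adjusted p = 2.78e-07). S100a9, a calcium-binding alarmin stored in neutrophils and monocytes, measured 416, 299 and 161 FPKM after NM and 1.88, 5.17 and 5.41 FPKM in PBS (log2 fold change 5.81 ± 0.37 SE, adjusted p = 1.35e-05). S100a9 varied more over the NM libraries than Slpi, and neither gene's groups overlapped.

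Srgn, the proteoglycan serglycin that packs granule contents, measured 131, 192 and 66.6 FPKM after NM and 1.65, 2.13 and 2.19 FPKM in PBS (log2 fold change 5.33 ± 0.32 SE, adjusted p = 8.94e-06). Tgfbi, an extracellular matrix protein induced by TGF-beta and marked in monocytes, measured 37.1, 46.7 and 52.4 FPKM after NM and 0.299, 0.207 and 0.272 FPKM in PBS (log2 fold change 5.19 ± 0.19 SE, adjusted p = 4.35e-07). Srgn was uneven over the NM libraries and Tgfbi was not, and neither gene's groups overlapped. Slc28a2, a concentrative nucleoside transporter, measured 32.05, 32.3 and 30.1 FPKM after NM and 0.458, 0.0635 and 0.666 FPKM in PBS (log2 fold change 4.57 ± 0.21 SE, adjusted p = 2.02e-06), and its 3 NM values were almost equal. The resistin-like gene Retnla, a product of alternatively activated macrophages and of epithelium, measured 34.4, 105 and 14.98 FPKM after NM and 0, 2.47 and 0 FPKM in PBS (log2 fold change 4.69 ± 0.65 SE, adjusted p = 0.00202). It was among the least even of the rises, with NM replicate 1 well above the others. Retnlg, the resistin-like gamma gene of granulocytes, was listed at 0 in all PBS libraries and at 36.04, 10.6 and 25.1 FPKM after NM (adjusted p = 5.97e-05). The surfactant protein transcripts Sftpb and Sftpc, products of alveolar type II cells, completed this set with log2 fold changes of 4.68 ± 0.38 SE and 4.63 ± 0.49 SE, both highest in NM replicate 0. One further gene of the set has no symbol in the gene table and was listed at 0 in all PBS libraries. Leading rises that reached the FPKM filter only through the NM libraries included Ccl12, Tgfbi, Slc28a2, Retnlg and the gene without a symbol. A rise was the only possible call for such genes.

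The largest falls were smaller than the largest rises. Tppp, a microtubule-stabilising protein, measured 3.35, 5.75 and 2.52 FPKM after NM and 12.8, 13.8 and 22.97 FPKM in PBS (log2 fold change -1.85 ± 0.29 SE, adjusted p = 0.00418). Its relative Tppp3, a marker of ciliated and secretory airway cells, measured 25.4, 56.9 and 25.7 FPKM after NM and 93.5, 181 and 107 FPKM in PBS (log2 fold change -1.84 ± 0.33 SE, adjusted p = 0.00822). The ranges did not overlap for either gene, though 1 PBS library of each lay well above the other PBS libraries. The lowest value among all calls was that of Klk6, a secreted kallikrein protease named after its values were seen. It measured 7.99, 14.5 and 6.59 FPKM after NM and 73.7, 37.7 and 17.03 FPKM in PBS (log2 fold change -1.87 ± 0.45 SE, adjusted p = 0.0265), but was not called without NM replicate 0 or 2 or PBS replicate 1 (adjusted p up to 0.109), nor with no filter or robust eBayes. Pmepa1, a membrane protein that dampens TGF-beta signalling, measured 107, 189 and 151 FPKM after NM and 408, 485 and 337 FPKM in PBS (log2 fold change -1.48 ± 0.23 SE, adjusted p = 0.003797). Tnfrsf8, the receptor CD30, measured 36.5, 55.9 and 54.8 FPKM after NM and 132, 141 and 128 FPKM in PBS (log2 fold change -1.45 ± 0.18 SE, adjusted p = 0.00115). Slc22a18, an organic cation transporter of the imprinted cluster, measured 17.6, 26.1 and 26.8 FPKM after NM and 62.999, 66.8 and 64.5 FPKM in PBS (log2 fold change -1.45 ± 0.18 SE, adjusted p = 0.00104), with the PBS libraries close together. Cfb, complement factor B of the alternative pathway, measured 186, 133 and 182 FPKM after NM and 334, 594 and 452 FPKM in PBS (log2 fold change -1.43 ± 0.23 SE, adjusted p = 0.00484). Lmna, which encodes the nuclear envelope proteins lamin A and lamin C, measured 86.5, 135 and 125 FPKM after NM and 318, 307 and 239 FPKM in PBS (log2 fold change -1.33 ± 0.20 SE, adjusted p = 0.00376). Mt2A, a metallothionein that binds zinc and copper, measured 327, 225 and 306 FPKM after NM and 681, 761 and 578 FPKM in PBS (log2 fold change -1.24 ± 0.19 SE, adjusted p = 0.00421). Every NM value of these 3 genes lay under every PBS value. The other large falls were in Bola1 (-1.53), Col23a1 (-1.31), Dpy19l3 (-1.28), Dhrs3 (-1.23), Kcnh4 (-1.22), Tomm40l (-1.19) and Prodh2 (-1.19), with adjusted p between 0.00131 and 0.0125. Dhrs3 reduces retinal, Col23a1 is a transmembrane collagen and Prodh2 oxidises hydroxyproline. With the spread shared over all 9 libraries of the study, Bola1 did not pass (adjusted p = 0.0653).

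**Figure D2:**
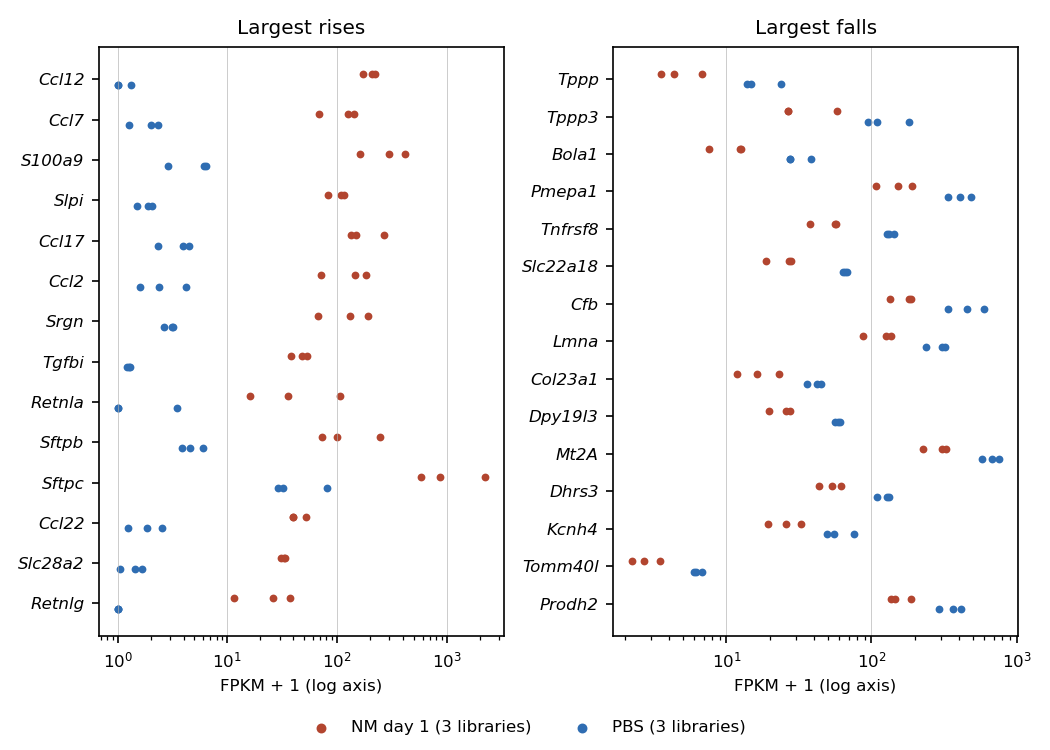
FPKM + 1 on a log axis for the named genes with the largest rises (left) and falls (right), with 1 point per library, NM day 1 above and PBS below the line of each gene. In every gene shown the 3 NM libraries lie apart from the 3 PBS libraries, and the gap between the groups is wider in the rises than in the falls.

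The base composition of promoters, which the choice of genes did not use, is given here as a description with no test. RefSeq promoters of the assembly GRCr8, each running from 250 bases before to 50 after an annotated start, matched 7587 of the 9694 genes by symbol. The ratio of observed to expected CG pairs, which is low where CG pairs have been lost over evolution and near 1 in CpG islands, had a median of 0.637 over the 445 promoters of higher genes, 0.722 over the 415 of lower genes and 0.784 over the 6727 of genes not called. A ratio under 0.4 was found in 158 promoters of higher genes (35.5%), 61 of lower genes (14.7%) and 928 of genes not called (13.8%), and in 48.4% of all 27457 promoters of the table. Genes of low level have CpG-poor promoters more often, and 156 higher genes reached the FPKM filter only through the NM libraries, so the shares were also taken by level. In bins of the mean over the 6 libraries, which a rise itself moves, 40.9%, 31.9%, 32.4%, 35.9% and 18.2% of higher genes had such a promoter from the lowest to the highest bin, against 28.2%, 11.1%, 11.2%, 8.88% and 11.3% of genes not called. In bins of the PBS mean it was 43.2%, 23.9%, 39.02%, 12.9% and 10.5% of higher genes against 28.0%, 11.7%, 10.97%, 9.21% and 11.6% of genes not called. Of lower genes it was 17.1% and 13.4% in the 2 highest of these bins. By PBS level the share of higher genes was thus above that of uncalled genes in the 4 lower bins and under it in the highest, and under that of lower genes in the 2 highest bins, which held 31 and 19 promoters of higher genes.

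Of the 15 leading rises 11 had a promoter in the table and 9 of these were CpG-poor, against 3 of 13 among the 15 leading falls, which were at a higher level in PBS than most of the leading rises. The 250 bases before the start are shown for 4 CpG-poor promoters of risen genes, for Tgfbi as a risen gene with a CpG-rich promoter, and for 3 of the leading falls, 2 of them CpG-rich (Pmepa1 and Tppp) and 1 CpG-poor (Lmna). They lie at chr10:67567626-67567875 on the plus strand (Ccl12), chr10:67513845-67514094 on the plus strand (Ccl7), chr2:178490623-178490872 on the minus strand (S100a9), chr20:4515165-4515414 on the plus strand (RT1-Da), chr17:7990114-7990363 on the minus strand (Tgfbi), chr3:182478650-182478899 on the minus strand (Pmepa1), chr1:31109704-31109953 on the minus strand (Tppp) and chr2:176258236-176258485 on the minus strand (Lmna) in GRCr8. Each is printed 5′ to 3′ in the direction of its gene, and capitals mark the CG pairs.
Ccl12: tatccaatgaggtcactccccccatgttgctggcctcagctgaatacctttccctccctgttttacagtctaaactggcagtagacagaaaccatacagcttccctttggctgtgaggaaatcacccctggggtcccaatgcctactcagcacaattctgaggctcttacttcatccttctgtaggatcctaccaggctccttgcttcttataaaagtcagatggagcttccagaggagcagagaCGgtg
Ccl7: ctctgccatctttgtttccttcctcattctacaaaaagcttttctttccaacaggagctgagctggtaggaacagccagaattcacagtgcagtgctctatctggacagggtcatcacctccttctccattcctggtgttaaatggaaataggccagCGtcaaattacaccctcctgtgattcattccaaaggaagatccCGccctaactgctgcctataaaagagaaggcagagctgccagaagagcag
S100a9: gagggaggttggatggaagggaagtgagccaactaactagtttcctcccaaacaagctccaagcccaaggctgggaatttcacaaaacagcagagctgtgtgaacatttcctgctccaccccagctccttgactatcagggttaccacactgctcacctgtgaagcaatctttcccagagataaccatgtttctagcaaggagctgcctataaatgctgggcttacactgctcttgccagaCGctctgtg
RT1-Da: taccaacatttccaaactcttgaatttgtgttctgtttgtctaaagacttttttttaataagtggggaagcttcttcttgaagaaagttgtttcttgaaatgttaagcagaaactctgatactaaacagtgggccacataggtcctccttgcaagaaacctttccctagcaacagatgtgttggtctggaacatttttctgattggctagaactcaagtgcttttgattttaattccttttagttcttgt
Tgfbi: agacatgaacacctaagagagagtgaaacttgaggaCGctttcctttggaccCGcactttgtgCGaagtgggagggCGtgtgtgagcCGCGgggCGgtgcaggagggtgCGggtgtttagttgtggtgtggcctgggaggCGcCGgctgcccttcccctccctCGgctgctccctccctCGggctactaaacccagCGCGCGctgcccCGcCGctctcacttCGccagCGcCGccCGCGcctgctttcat
Pmepa1: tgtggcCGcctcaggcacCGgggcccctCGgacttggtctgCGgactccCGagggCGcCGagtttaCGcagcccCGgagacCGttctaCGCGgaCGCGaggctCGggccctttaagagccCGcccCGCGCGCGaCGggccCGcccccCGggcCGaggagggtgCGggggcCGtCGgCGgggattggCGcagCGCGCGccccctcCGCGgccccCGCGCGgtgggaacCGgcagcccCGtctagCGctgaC
Tppp: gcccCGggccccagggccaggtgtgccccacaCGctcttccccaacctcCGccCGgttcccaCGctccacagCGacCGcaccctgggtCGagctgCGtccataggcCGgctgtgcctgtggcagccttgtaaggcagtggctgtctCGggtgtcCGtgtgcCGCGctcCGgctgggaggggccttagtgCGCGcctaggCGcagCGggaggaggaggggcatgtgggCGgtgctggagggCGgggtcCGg
Lmna: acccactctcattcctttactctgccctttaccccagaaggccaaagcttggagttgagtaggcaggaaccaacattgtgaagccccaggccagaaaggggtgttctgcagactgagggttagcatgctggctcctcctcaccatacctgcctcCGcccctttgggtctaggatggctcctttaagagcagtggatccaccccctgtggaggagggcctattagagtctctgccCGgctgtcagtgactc

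These windows held 1 CG pair in Ccl12, 2 in Ccl7, 1 in S100a9 and 0 in RT1-Da, against 22 in Tgfbi, 40 in Pmepa1, 22 in Tppp and 2 in Lmna. The letters TATAAA, the TATA box, begin at -41 in Ccl12, -34 in Ccl7 and -42 in S100a9, counted from the annotated start. Motifs were searched on both strands of the whole window, 50 bases after the start included, and matches of different motifs may overlap. TATAAA was found in 12.4% of promoters of higher genes, 5.54% of lower genes and 7.03% of all genes tested. The AP-1 letters TGANTCA were in 8.76%, 5.06% and 5.11% in the same order, and the interferon response letters, GAAA and GAAA with 2 bases between, in 5.39%, 1.93% and 3.11%. The NF-kB letters, GGG and TTTCC with 2 bases between, were rare in each set, at 2.697%, 2.17% and 1.69%. GGGCGG, the SP1 letters common in CpG islands, were less frequent in promoters of higher genes, with 53.7%, 66.8% and 62.3%. Over the whole table of promoters these 5 motifs were in 14.3%, 7.33%, 3.77%, 1.51% and 34.9%. The other motifs searched follow, with promoters of higher genes first and of all genes tested second. C/EBP letters were in 12.4% and 8.57%, and PU.1 letters in 3.6% and 2.82%. E2F letters were in 9.21% and 8.8%, and CCAAT in 41.1% and 38.65%. STAT letters were in 5.84% and 6.84%, and NRF2 letters in 13.7% and 14.6%. CREB letters were in 2.47% and 3.41%, and E-box letters in 6.97% and 9.83%. These shares describe letters and not binding, and no test was made of them.

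**Figure D3:**
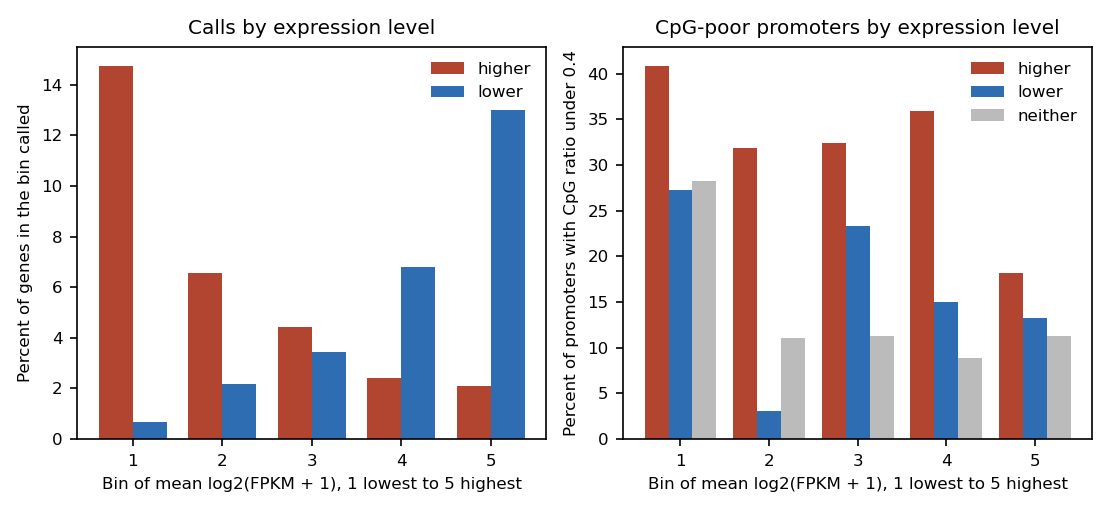
Left, the percent of genes called higher or lower in each of 5 bins of mean log2(FPKM + 1) over the 6 libraries. Right, the percent of promoters with a CpG ratio under 0.4 among higher, lower and uncalled genes in the same bins. Higher calls thin out and lower calls grow with level, and in these bins higher genes have the largest share of CpG-poor promoters, which by PBS level does not hold in the 2 highest bins.

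Families defined by symbol pattern were set against a background in which over all genes tested 6.06% were higher and 5.22% lower, with a median log2 fold change of -0.04. Of the 587 higher genes 156 reached the FPKM filter only through the NM libraries, which leaves a rise as their only possible call. Such genes, Ccl12 and Adgrg5 among them, count in the shares of families and lists as they do in the background. A call is said to hold where it was made in each of the 6 fits without 1 library, and counts of 3 or more that move by over 1.5 times in such a fit are given with it. The CC chemokines had 9 higher members of 13 tested (median log2 fold change 1.94), and the CXC chemokines 4 of 7 (1.69), of which 8 and 3 held. Beside the leading members, Cxcl2, which attracts neutrophils, differed by 2.76 ± 0.43 SE in log2, Cxcl10, an interferon-induced attractant of T cells, by 2.14 ± 0.37, and the mucosal chemokine Cxcl17 by 3.999 ± 0.44. Of 10 interleukins tested Il1b, the pyrogenic cytokine interleukin-1 beta, was the 1 called. It measured 189.8, 129 and 78.9 FPKM after NM and 15.3, 12.2 and 9.57 FPKM in PBS (log2 fold change 3.26 ± 0.29 SE, adjusted p = 0.000112), so it was already present in PBS. Among 13 growth factors 4 were higher and 1 lower, the higher count being 2 without NM replicate 0 or 1 or PBS replicate 1 or 2. The lower call did not hold. Csf1, the macrophage colony-stimulating factor on which macrophages depend, measured 71.4, 68.9 and 25.5 FPKM after NM and 2.38, 2.44 and 2.89 FPKM in PBS (log2 fold change 3.84 ± 0.34 SE, adjusted p = 0.000105). Pdgfa, a mitogen of fibroblasts, differed by 1.61 ± 0.32 SE.

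Of 10 chemokine receptors 5 were higher and 1 lower, of which 4 higher and 0 lower held. Cxcr2, the neutrophil receptor for CXC chemokines, and Ccr7, which guides dendritic cells to lymph nodes, differed by 3.80 and 3.15. C-type lectins, sugar-binding receptors that recognise microbes and damaged cells, had 8 higher members and 0 lower of 17 (median 0.80), the higher count being 5 without NM replicate 0 or PBS replicate 1. Clec10a, a galactose-type lectin, measured 30.2, 58.7 and 59.4 FPKM after NM and 1.3997, 0.647 and 3.39 FPKM in PBS (log2 fold change 4.22 ± 0.36 SE, adjusted p = 8.94e-05). Clec4e, the mycobacterial glycolipid receptor Mincle, measured 25.7, 15.1 and 8.85 FPKM after NM and 0.6601, 1.22 and 4.38 FPKM in PBS (log2 fold change 2.58 ± 0.45 SE, adjusted p = 0.00766). Clec4e was less even over the NM libraries, with replicate 0 the highest and replicate 2 the lowest. G protein-coupled receptors had 14 higher and 3 lower of 56, but a median of -0.01, near that of all genes tested. Their higher count was 8 without PBS replicate 1 and 9 without NM replicate 0, and their lower count 0 without NM replicate 0 or PBS replicate 1 and 1 without NM replicate 1. The adhesion receptor Adgrg5 measured 12.1, 22.4 and 17.5 FPKM after NM and 0, 0.324 and 0.424 FPKM in PBS (log2 fold change 3.85 ± 0.26 SE, adjusted p = 2.10e-05). Adora2a, the adenosine receptor that restrains inflammation, differed by 1.78 ± 0.24 SE. The TNF receptor superfamily had 6 higher and 2 lower of 13, of which 3 higher and 1 lower held, the higher count being 3 without NM replicate 0. Cd40, the costimulatory receptor for T cell help, measured 9.47, 14.4 and 10.8 FPKM after NM and 1.14, 0.476 and 0.415 FPKM in PBS (log2 fold change 2.91 ± 0.25 SE, adjusted p = 8.61e-05), the opposite of Tnfrsf8 among the leading falls. Interleukin receptor chains had 6 higher and 1 lower of 19, the higher count being 3 without NM replicate 1 or PBS replicate 1. The decoy receptor Il1r2 (3.67), Il21r (2.82) and Il7r (1.51) were the 3 that held. Of 8 Toll-like receptors 2 were higher, Tlr1 (2.40) and Tlr12 (1.40), the latter not called without NM replicate 1 or PBS replicate 1 (adjusted p up to 0.0529). Among 9 Fc receptors Fcgr2b, the inhibitory IgG receptor, was higher (2.36), and 1 was lower with a call that did not hold.

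The RT1 genes of the rat major histocompatibility complex present antigen. Of 29 RT1 and partner genes tested 9 were higher, of which 7 held, but the median was 0.08. The higher ones were mostly of class II, whose products show peptides to helper T cells. RT1-Da, the class II alpha chain, measured 241, 291 and 347 FPKM after NM and 10.8, 14.6 and 12.8 FPKM in PBS (log2 fold change 4.41 ± 0.18 SE, adjusted p = 6.24e-07). RT1-Ba, another class II alpha chain, measured 193, 196 and 214 FPKM after NM and 6.71, 9.83 and 9.59 FPKM in PBS (log2 fold change 4.39 ± 0.17 SE, adjusted p = 4.80e-07). Cd74, the invariant chain that escorts class II molecules, measured 793, 978 and 987 FPKM after NM and 37.6, 66.6 and 64.3 FPKM in PBS (log2 fold change 4.05 ± 0.22 SE, adjusted p = 6.28e-06). For these 3 genes every NM value lay far above every PBS value. Interferon-induced genes had 9 higher and 1 lower of 22 (median 0.58), of which 6 higher and 0 lower held, among them Ifit3 (2.75), Ifitm1 (3.17) and Oasl (2.18), all antiviral effectors. Reads of near-identical RT1, Ifit and Oas copies may be shared between them.

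Of 17 NF-kB subunits and feedback inhibitors 4 were higher and 1 lower (median -0.09), of which 3 higher and 0 lower held. Bcl3, a nuclear partner of NF-kB, measured 19.1, 13.7 and 16.04 FPKM after NM and 0.457, 1.58 and 0.691 FPKM in PBS (log2 fold change 3.21 ± 0.25 SE, adjusted p = 5.01e-05). Birc3, an inhibitor of apoptosis induced by NF-kB, measured 26.6, 32.7 and 16.6 FPKM after NM and 1.97, 1.89 and 2.48 FPKM in PBS (log2 fold change 3.03 ± 0.25 SE, adjusted p = 5.97e-05). For both genes the groups were far apart, while the tested subunits Nfkb1 (0.44), Nfkb2 (-0.46) and Rela (-0.21) did not pass (adjusted p between 0.0835 and 0.366). AP-1 and immediate early factors had 6 higher and 2 lower of 26, of which 4 higher and 0 lower held, among them the orphan nuclear receptor Nr4a3 (2.58) and the early response gene Ier3 (2.53). Interferon regulatory factors and STATs had 6 higher and 1 lower of 19, among them Irf7 (2.01) and Irf4 (1.69). Their higher count was 2 without NM replicate 1 or PBS replicate 1 and 3 without NM replicate 0 or 2 or PBS replicate 0. Cytokine signalling suppressors and MAP kinase phosphatases had 2 higher and 1 lower of 23, near the background, the higher count being 5 without PBS replicate 2. Socs3, which limits cytokine signalling through STAT3, measured 57.8, 68.9 and 30.8 FPKM after NM and 8.97, 9.49 and 11.8 FPKM in PBS (log2 fold change 2.20 ± 0.27 SE, adjusted p = 0.000916). The phosphatase Dusp1 differed by 1.37 ± 0.26 SE. Factors of lysosome biogenesis and lipid handling had 6 lower and 2 higher of 17 (median -0.41), and the lower count was 2 without NM replicate 0 or PBS replicate 1 and 3 without NM replicate 2 or PBS replicate 0. Tfeb, the regulator of lysosome genes, measured 50.4, 67.6 and 70.4 FPKM after NM and 117, 163 and 130.1 FPKM in PBS (log2 fold change -1.11 ± 0.19 SE, adjusted p = 0.00616). Nr1h2, the oxysterol receptor LXR-beta, measured 101, 120 and 142 FPKM after NM and 238, 267 and 209 FPKM in PBS (log2 fold change -0.98 ± 0.17 SE, adjusted p = 0.00818). Their groups did not overlap, and the calls of the other 4 lower members and of the 2 higher ones did not hold.

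Among 14 protease inhibitors 6 were higher and 0 lower (median 0.57), of which 4 held. Cst3, cystatin C, was the most abundant of the genes that rose in every fit without 1 library, at 1191, 1444 and 1634 FPKM after NM and 526, 516 and 386 FPKM in PBS (log2 fold change 1.58 ± 0.20 SE, adjusted p = 0.00114). Cst7, cystatin F, measured 52.9, 62.2 and 55.8 FPKM after NM and 3.41, 3.499 and 5.95 FPKM in PBS (log2 fold change 3.48 ± 0.20 SE, adjusted p = 8.92e-06). Among proteases, those higher included Ctse (2.50) and Mmp12, the macrophage elastase, at 18.7, 32.3 and 10.01 FPKM after NM and 1.82, 1.05 and 0.552 FPKM in PBS (log2 fold change 3.22 ± 0.38 SE, adjusted p = 0.000683). Of 11 cathepsins 2 were higher and 1 lower, with a median of -0.07, and 2 higher and 0 lower of these calls held. Of 14 genes of tryptophan, arginine and itaconate metabolism 3 were higher: Nos2, the inducible nitric oxide synthase (2.68), Kmo, which hydroxylates kynurenine (2.67), and Acod1, which makes itaconate (2.26). Pla2g7, the lipase that hydrolyses platelet-activating factor, measured 27.2, 23.7 and 16.1 FPKM after NM and 1.08, 0.107 and 0.698 FPKM in PBS (log2 fold change 3.86 ± 0.28 SE, adjusted p = 3.22e-05). Its family, the phospholipases, had 3 higher and 4 lower of 14, where 2 higher and 0 lower held and the lower count was 0 without NM replicate 0 or 1 or PBS replicate 1 and 2 without NM replicate 2 or PBS replicate 0. Solute carriers, at 180 the second largest family tested, had 14 higher and 9 lower (median -0.07), close to the background in both directions. The higher count of solute carriers was 5 without NM replicate 0 and 8 without NM replicate 1 or PBS replicate 1, and the lower count 3 without NM replicate 0 or PBS replicate 1 and 4 without NM replicate 2 or PBS replicate 0. The potassium channel Kcnn4, which sets the membrane potential of activated leukocytes, measured 24.6, 24.7 and 16.3 FPKM after NM and 1.33, 1.04 and 0.425 FPKM in PBS (log2 fold change 3.57 ± 0.25 SE, adjusted p = 2.35e-05). Among 20 genes of heme, iron and metal binding 6 were higher and 3 lower. The higher count of this list was 3 without NM replicate 0 or 1 or PBS replicate 1, and the lower count 1 without NM replicate 0 or 1 or PBS replicate 0 or 1. Transferrin (Tf) and its receptor Tfrc, the uptake route for iron, differed by 1.98 ± 0.31 and 1.09 ± 0.20 SE, whereas Mt2A was among the leading falls. Complement had 0 higher and 2 lower of 12 (median -0.65), Cfb and C2, the latter not called without NM replicate 0 or 1 or PBS replicate 0 or 1 (adjusted p up to 0.111).

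**Figure D4:**
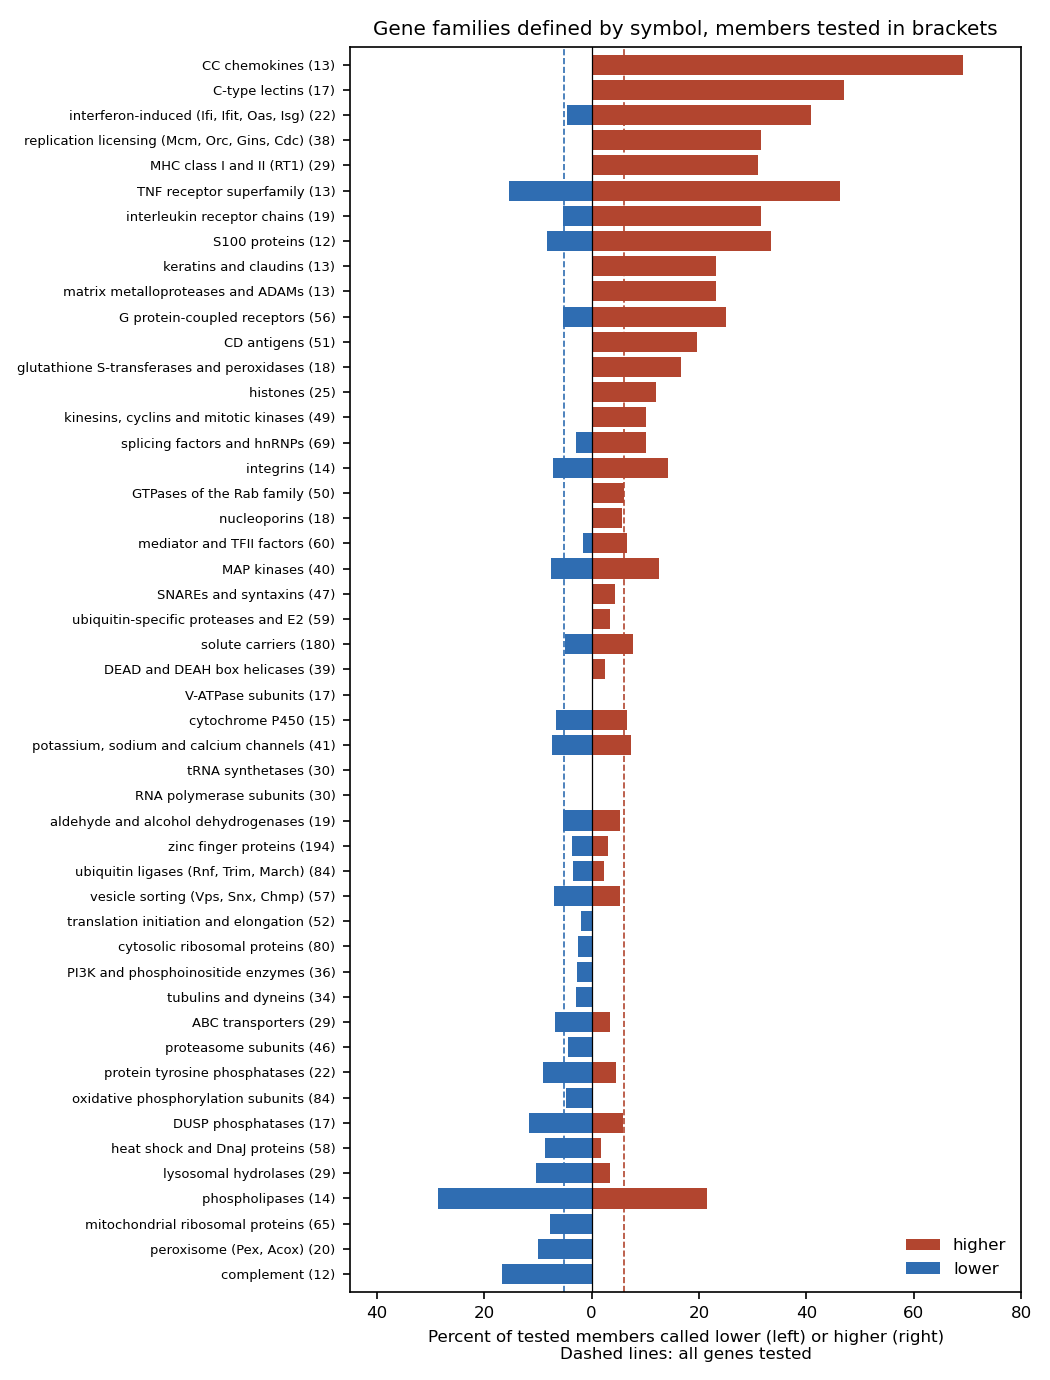
Percent of tested members called higher (right) or lower (left) in each family defined by symbol with at least 12 members tested, the number tested in brackets. Dashed lines mark the shares over all genes tested, 6.06% higher and 5.22% lower, and chemokines, lectins and interferon-induced genes extend past the right line while ribosomal and respiratory chain proteins have no higher member.

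Replication licensing and fork proteins had 12 higher and 0 lower of 38 (median 0.61), a count that fell to 5 without NM replicate 0 and 6 without PBS replicate 1. Mcm6, a subunit of the replicative helicase, measured 14.8, 11.4 and 13.6 FPKM after NM and 5.91, 6.01 and 4.01 FPKM in PBS (log2 fold change 1.19 ± 0.20 SE, adjusted p = 0.00665). Mcm4, of the same complex, measured 19.5, 14.7 and 10.6 FPKM after NM and 5.896, 5.91 and 5.32 FPKM in PBS (log2 fold change 1.21 ± 0.22 SE, adjusted p = 0.00888). Cdt1, which loads that helicase onto origins, measured 13.4, 10.6 and 11.2 FPKM after NM and 5.31, 5.21 and 5.74 FPKM in PBS (log2 fold change 0.98 ± 0.18 SE, adjusted p = 0.00818). The ranges stood apart but near each other, unlike those of the chemokines. Kinesins, cyclins and mitotic kinases had 5 higher and 0 lower of 49 (median 0.28), and 0 of these calls held (0 without NM replicate 0, 1 without PBS replicate 1 and 2 without NM replicate 1 or 2 or PBS replicate 0). Splicing factors had 7 higher and 2 lower of 69 (median 0.26), with 2 or 3 higher members left without NM replicate 0, 1 or 2 or PBS replicate 1 and 0 lower calls that held. Hnrnph1, an hnRNP that binds G-rich RNA, measured 186, 187 and 154 FPKM after NM and 92.2, 94.9 and 105 FPKM in PBS (log2 fold change 0.84 ± 0.15 SE, adjusted p = 0.00818). Cytosolic ribosomal proteins had 0 higher and 2 lower of 80, yet a median of -0.32 and 28 members with all NM values below all PBS values, beside 18.3% of all genes tested. Neither lower call held, and the lower count was 0 without NM replicate 0 or 1 or PBS replicate 0 or 1, 5 without NM replicate 2 and 7 without PBS replicate 2. Their median was -0.00921 after quantile normalisation and -0.29 with median-of-ratios scaling. Subunits of oxidative phosphorylation had 0 higher and 4 lower of 84 (median -0.19, and 0.00864 after quantile normalisation or -0.16 with median-of-ratios scaling). Their lower count was 1 without NM replicate 0 or 1 or PBS replicate 1, 2 without PBS replicate 0 and 9 without PBS replicate 2. Ndufa13 of complex I was the 1 member called in each fit, at 483, 548 and 653 FPKM after NM and 1102, 1402 and 1143 FPKM in PBS (log2 fold change -1.12 ± 0.19 SE, adjusted p = 0.00645). No member was called in either direction among 30 tRNA synthetases, 30 RNA polymerase subunits and 17 V-ATPase subunits. An unadjusted limma p under 0.05 was found in 4, 4 and 2 of them, beside 28.3% of all genes tested. Without PBS replicate 2 there were 1 higher and 2 lower tRNA synthetases and 1 lower RNA polymerase subunit.

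Ferritin light chain (Ftl1), the iron store of macrophages and the highest gene in each of the 6 libraries, held 3.15%, 3.46% and 4.11% of the summed FPKM after NM and 5.91%, 6.24% and 5.67% in PBS. The groups did not overlap, and the exact two-sided permutation test gave p = 0.1, the smallest that 3 against 3 libraries allow. On the log2 scale Ftl1 did not pass (log2 fold change -1.03 ± 0.35 SE, adjusted p = 0.0869), but it passed with robust eBayes, with library weights, with a filter of 5 FPKM and without PBS replicate 2 (adjusted p between 0.0143 and 0.04903). The next in order, Fth1, Lyz2, S100a6, Rpl35 and S100a11, had log2 fold changes from -0.95 (Rpl35, adjusted p = 0.0545) to -0.51 (S100a11, adjusted p = 0.293), and none of them was called. Rpl35 passed without NM replicate 2 (adjusted p = 0.0443). The 100 genes most abundant in PBS held 41.5 ± 2.49% of the summed FPKM after NM and 47.2 ± 1.31% in PBS (mean ± SD, n = 3), as a description, since a choice by the PBS values itself favours a lower share after NM. Of these 100 genes 92 had a negative log2 fold change, with a median of -0.37, and 7 were called lower. After quantile normalisation the median was -0.02, and with median-of-ratios scaling -0.33. The genes called higher carried 2.41% to 3.19% of the summed FPKM after NM and 0.698% to 0.7597% in PBS, and those called lower 5.64% to 6.46% and 8.295% to 9.13%, as a description, since these genes were chosen on the same values.

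The label of the cells was checked against alveolar macrophage markers. Mrc1, the mannose receptor, measured 284, 318 and 364 FPKM after NM and 362, 347 and 419 FPKM in PBS (log2 fold change -0.23 ± 0.16 SE, adjusted p = 0.409). Cd68, a lysosomal glycoprotein of macrophages, measured 808, 759 and 873 FPKM after NM and 1355, 1005 and 724 FPKM in PBS (log2 fold change -0.29 ± 0.23 SE, adjusted p = 0.447). Csf1r, the receptor for Csf1, measured 43.1, 50.1 and 62.1 FPKM after NM and 49.5, 60.1 and 62.3 FPKM in PBS (log2 fold change -0.15 ± 0.18 SE, adjusted p = 0.615). The groups overlapped for all 3, and macrophage transcripts were abundant in every library. Fabp4, a lipid carrier of alveolar macrophages, ranged from 172 to 927 FPKM in PBS and did not pass (adjusted p = 0.66997). Pparg, the master factor of alveolar macrophage identity, was lower (115, 105 and 140.5 FPKM after NM and 176, 175 and 180.3 FPKM in PBS; log2 fold change -0.57 ± 0.16 SE, adjusted p = 0.0424). That call was lost without NM replicate 0 or 1 or PBS replicate 0, 1 or 2 (adjusted p up to 0.149), and with either other scaling. Car4, a carbonic anhydrase used as an alveolar macrophage marker in mice and present in lung capillary endothelium, was higher, at 21.1, 11.7 and 5.69 FPKM after NM and 0, 0.155 and 0.609 FPKM in PBS (log2 fold change 3.33 ± 0.40 SE, adjusted p = 0.0007699). Marco was listed at 0 in all 6 libraries. Cidec, a lipid droplet protein, was lower, at 27.1, 23.7 and 20.8 FPKM after NM and 50.4, 52.7 and 43.4 FPKM in PBS (log2 fold change -1.004 ± 0.16 SE, adjusted p = 0.00486), and the groups did not overlap. Of 17 markers in this list 1 was higher and 3 lower, beside 6.06% and 5.22% of all genes tested. Car4, the higher one, reached the FPKM filter only through the NM libraries. Cidec was the 1 lower call that held, and the lower count was 1 without NM replicate 0 or PBS replicate 0 or 1. The summed level of the list was 3361 to 4207 FPKM after NM and 3785 to 7266 FPKM in PBS.

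Markers of several other cell types were higher after NM, those of others were not, and their part in the results was not tested. The counts are to be read beside 6.06% higher and 5.22% lower over all genes tested, and the lists are short. Some higher markers, such as Retnlg and Lamp3, reached the FPKM filter only through the NM libraries, so a rise was their only possible call. Alveolar epithelial markers had 12 higher of 19 (7 without NM replicate 1), with a summed level of 1074 to 3149 FPKM after NM and 265 to 448 FPKM in PBS, replicate 0 being the highest of the NM libraries. Sftpd was listed at 0 in all 6 libraries. Neutrophil markers had 7 higher and 1 lower of 10, of which 6 higher and 0 lower held (812 to 1269 FPKM after NM and 313 to 494 FPKM in PBS). Fpr1 was listed at 0 in all 6 and Elane, Ltf and Mmp9 did not reach the filter. Monocyte markers had 9 higher of 20, all 9 called in each fit, among them Plac8 at 42.1, 48.7 and 64.4 FPKM after NM and 1.73, 3.29 and 1.57 FPKM in PBS (log2 fold change 4.06 ± 0.24 SE, adjusted p = 8.94e-06) and Chi3l1 (3.85). Their summed level was 17704 to 26081 FPKM after NM and 26332 to 39496 FPKM in PBS, and it includes Lyz2, which macrophages also express. Of 3 natural killer cell markers tested Klrk1, the activating receptor NKG2D, was higher, at 40.4, 35.6 and 31.96 FPKM after NM and 0.124, 1.72 and 2.02 FPKM in PBS (log2 fold change 4.13 ± 0.34 SE, adjusted p = 5.97e-05). The sum of the 11 markers in this list was 48.98 to 52.96 FPKM after NM and 6.24 to 7.89 FPKM in PBS. Klrk1 alone made up most of that sum in each NM library, and the markers not tested did not reach the filter. T and B lymphocyte markers had 4 higher of 8 (65.9 to 76.3 FPKM after NM and 31.1 to 38.7 FPKM in PBS), the higher count being 2 without NM replicate 0 or 2. Dendritic cell markers had 5 higher of 7 (137 to 173 FPKM after NM and 102 to 125 FPKM in PBS), the higher count being 2 without NM replicate 1 and 3 without NM replicate 0 or 2 or PBS replicate 0 or 1. Among these 5 were Lamp3, which is also counted in the alveolar epithelial list, and Clec10a, which is also counted among the C-type lectins. Airway epithelial markers had 0 higher and 1 lower of 11, Tppp3, and sums that overlapped (1845 to 4036 FPKM after NM and 1688 to 8842 FPKM in PBS). Endothelial markers had 1 higher of 6, Plvap (2.09), and sums that overlapped (70.3 to 81.9 FPKM after NM and 60.2 to 74.2 FPKM in PBS). Erythroid and platelet markers had 0 higher and 0 lower of 7 in the fit of all 6 libraries, and the lower count was 4 without PBS replicate 0. Of these markers 6 had a negative log2 fold change (median -0.72), and the sums overlapped (601 to 987 FPKM after NM and 685 to 2685 FPKM in PBS). Of the 7 tested 3 had an unadjusted limma p under 0.05, beside 28.3% of all genes tested.

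When genes were placed in the order of the GRCr8 annotation, 147 of 567 placed higher genes (25.9%) had another higher gene as the next tested gene on either side, against 11.8% of all 9136 placed genes. For lower genes it was 110 of 489 (22.5%) against 10.1%, and it was 8.33% without NM replicate 0, 8.696% without NM replicate 1 and 13.7% without PBS replicate 1, where fewer genes were called lower. No test was made of these shares. There were 26 runs of 3 or more. On chromosome 10 Ccl2, Ccl7, Ccl12 and Ccl1 stood in a row, and the last of these, at 4.37, 4.02 and 3.65 FPKM after NM and 0.4202, 0.578 and 0 FPKM in PBS, was the least expressed. On chromosome 20 the class II genes RT1-Da, RT1-Db1, RT1-Ba, RT1-Bb and RT1-DOb rose by 4.41, 4.11, 4.39, 2.38 and 1.97 on the log2 scale. On chromosome 8 the run was Mmp12 (3.22), Mmp7 (1.79), Tmem123 (0.70), Birc2 (0.92) and Birc3 (3.03), which mixes proteases with apoptosis inhibitors. Tmem123 was not called without NM replicate 0 or 1 or PBS replicate 1 or 2 (adjusted p up to 0.139). Havcr2 (2.98), the checkpoint receptor TIM-3, lay with Timd2 (1.46), Havcr1 (1.18) and Med7 (0.85) on chromosome 10, and Clec4a1, Clec4a3 and Clec4a2 on chromosome 4. The calls of Havcr1 and Med7 ended without NM replicate 0 or 1 or PBS replicate 0 or 1 (adjusted p up to 0.0914). Other runs held family members with similar sequences, such as Ly6e, Ly6c and Ly6i, or Ifit2, Ifit3 and Ifit1, for which shared reads cannot be told apart from shared change. Ifit2 was not called without NM replicate 0, 1 or 2 or PBS replicate 1 or 2 (adjusted p up to 0.203). The longest runs of lower genes were Pop5, Cabp1, Mlec, Unc119b and Acads on chromosome 12 (log2 fold changes from -1.16 to -0.64) and Use1, Ocel1, Nr2f6, Ushbp1 and Babam1 on chromosome 16, which belong to no common family in the lists. Of these 10 genes Unc119b and Nr2f6 were called in each fit without 1 library, and the calls of 1 or more of the others ended without NM replicate 0, 1 or 2 or PBS replicate 0, 1 or 2 (adjusted p up to 0.142).

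Among called genes, the 5 with the largest spread over the NM libraries were Ly6c, S100g, Retnla, Ly6i and Lamp3. Ly6i, a Ly6 family member, measured 84.6, 38.2 and 12.03 FPKM after NM and 2.68, 2.32 and 3.34 FPKM in PBS (log2 fold change 3.23 ± 0.53 SE, adjusted p = 0.00532), highest in replicate 0. Ly6c, a monocyte surface antigen, was lowest there (3.899, 31.6 and 20.8 FPKM, and listed at 0 in PBS). S100g, a calcium-binding protein, measured 85.8, 65.1 and 13.9 FPKM after NM and 1.499, 7.54 and 6.27 FPKM in PBS (log2 fold change 3.03 ± 0.63 SE, adjusted p = 0.0159) and was not called without NM replicate 0 or 1 (adjusted p up to 0.0751). Lamp3 measured 15.9, 6.37 and 2.13 FPKM after NM and 0.143, 0.693 and 0.519 FPKM in PBS (log2 fold change 2.35 ± 0.50 SE, adjusted p = 0.0178) and was not called without NM replicate 1 (adjusted p up to 0.0522). Transcript rows tested singly gave few opposite changes: of 318 genes with 2 or more rows, 41 had 1 row called and another not, 2 had all rows called the same way, and 1 had rows called in opposite directions. That gene was Flot2, a scaffold protein of lipid rafts. Its main coding transcript measured 22.3, 27.1 and 27.9 FPKM after NM and 45.5, 49.6 and 46.1 in PBS (log2 fold change -0.85 ± 0.15 SE, adjusted p = 0.0132). Its non-coding transcript measured 33.3, 20.02 and 8.14 FPKM after NM and 1.36, 7.17 and 2.32 in PBS (2.23 ± 0.55 SE, adjusted p = 0.0431). The non-coding row was uneven over the NM libraries, highest in replicate 0.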

How the data were processed

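RNA of alveolar macrophages was sequenced as paired 75 base reads from TruSeq libraries, per the labels' protocols. The authors deposited FPKM per RefSeq transcript, and the submitters' processing notes name TopHat, Cuffdiff and the rat build rn4. Versions, strand and the handling of multiply mapped reads are not given in the sources used here. RefSeq tables of GRCr8 named 17189 of 18197 transcript rows (94.5%), and rows of a symbol were summed. Genes that reached 1 FPKM in 3 or more of the 6 libraries were fitted with limma 3.58.1 in R 4.3.3 (lmFit, eBayes with trend, two-sided) on log2(FPKM + 1), on which fold changes of low genes are understated. The replicate numbers were not used to pair the libraries in the main fit. The fit was tested on simulated data with known changes, placed in genes with a mean log2(FPKM + 1) over 2. It recovered 3.58% of log2 changes of 0.5, 50.75% of those of 1 and 92.1% of those of 2, with 5.08% of its calls false. Most small changes were thus missed in the simulation. Only 200 of 9694 genes were changed in each simulated set, a smaller share than the 11.3% called here. The adjusted p depends on that share, so these rates need not hold for the real data. The named genes were the 15 largest rises and falls called in each fit without 1 library (groups apart, mean of the higher group at least 5 FPKM), from each family or list up to 3 called genes of smallest p, a fixed set of macrophage genes, the 5 most abundant and the 5 least even genes, runs of neighbours and genes with opposite transcripts. Members, families and lists were chosen with earlier results of these data known. Families are patterns of gene symbols, and a few items that the rule names are not reported here. Python 3.11.15, pandas 2.3.3, scipy 1.17.1 and matplotlib 3.10.9 were used.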

Additional observations from a re-analysis of the deposited data

How the results depend on the processing

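Other settings were a pseudocount of 0.1 or 5, a filter of 5 FPKM or none, scaling by median of ratios or by quantiles, single transcript rows, all 9 libraries in the fit, robust eBayes, library weights, a replicate block and each library left out in turn. Of the 130 called genes that the text names 109 were called the same way in each alternative that tested them, 18 lost the call in 1 or more fits without 1 library and 13 in 1 or more of the others, and 0 changed direction. The rule for naming genes put first those called in each fit without 1 library, which itself favours a high share. Of all 587 higher and 506 lower genes, 268 and 63 were called in each of those fits. Quantile normalisation ended 6 of the 130 named calls and gave 478 higher and 361 lower genes. Of the 1093 genes called in the main fit, 701 were also called with it. The filter of 5 FPKM, under which fewer genes are tested, gave 369 higher genes, 215 of them over 2-fold. Library weights gave 920 higher and 1234 lower genes, 123 of the latter over 2-fold, and the cause was not tested. A pseudocount of 5 shrinks fold changes and left 167 higher and 30 lower genes over 2-fold. The genes called in each fit without 1 library numbered 268 higher and 63 lower, against higher counts of 112 without a filter, 153 with a filter of 5 FPKM and lower counts of 3 without a filter, 26 with quantile normalisation, 18 with library weights. Without 1 library, 2 libraries stood for its group, and there were 306 to 561 higher and 77 to 684 lower genes, 284 to 411 and 30 to 120 over 2-fold. The deviations of same-numbered NM and PBS libraries from their group means had correlations of 0.116, -0.009897 and -0.127. Only NM replicate 0 had its highest correlation with the library of its own number, and every other library had it with another number. With so few libraries per group these values cannot decide whether the numbers pair the libraries. With the replicate block there were 614 higher and 418 lower genes. The share of higher genes with a CpG-poor promoter ran from 28.4% to 45.8%, that of higher genes beside another from 19.9% to 28.7% and that of lower genes beside another from 8.33% to 35.5%, lowest without NM replicate 0. With unknown absolute depth, no limit of detection could be set for genes listed at 0.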

Other observations

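Several other families had a few called members, to be read against 6.06% higher and 5.22% lower over all genes tested. Integrins had 2 higher and 1 lower of 14 (median log2 fold change -0.06). Itgam, the alpha chain of the complement receptor 3, measured 33.4, 31.9 and 18.1 FPKM after NM and 1.05, 1.31 and 2.53 FPKM in PBS (log2 fold change 3.45 ± 0.28 SE, adjusted p = 5.97e-05). The other higher integrin was Itgb7 (2.51), which pairs with alpha 4 in homing to mucosa. Heat shock and DnaJ proteins had 1 higher and 5 lower of 58 (median log2 fold change -0.07), the lower count being 1 without NM replicate 0 or PBS replicate 1, 2 without NM replicate 1 or 2 and 8 without PBS replicate 2. Dnajb13 (-0.87) was the 1 fall called in each fit without 1 library. Rab GTPases had 3 higher and 0 lower of 50 (median log2 fold change -0.07), near the background in the higher direction and under it in the lower. Rab30 (2.56) was the 1 called in each fit without 1 library. The higher count of this family was 1 without NM replicate 0 or 1, and the lower count 4 without PBS replicate 2. Lysosomal hydrolases and membrane proteins had 1 higher and 3 lower of 29 (median log2 fold change -0.32), the lower count being 1 without NM replicate 0 or PBS replicate 1 and 8 without PBS replicate 2. The mannosidase Man2b2 measured 84.5, 147 and 128 FPKM after NM and 292, 268 and 217 FPKM in PBS (log2 fold change -1.13 ± 0.22 SE, adjusted p = 0.0115). Zinc finger proteins, the largest family with 194 tested, had 6 higher and 7 lower, under the background in both directions (the higher count being 2 without PBS replicate 1 and 3 without NM replicate 1, the lower count 0 without NM replicate 0 or PBS replicate 1 and 4 without NM replicate 1). Among those called were the RNA-binding regulators Zc3h12d (1.21) and Zfp36l1 (0.89), which limit cytokine messages. Ubiquitin ligases had 2 higher and 3 lower of 84 (median log2 fold change -0.11), also under the background, the lower count being 1 without NM replicate 0 or 2 or PBS replicate 1 and 6 without PBS replicate 2, with Trim72 (2.39), a membrane repair protein, and Trim47 (-1.13) on opposite sides. Of 26 regulators of apoptosis and survival 5 were higher and 0 lower (the higher count being 3 without NM replicate 0 or 1 or PBS replicate 1), and the 3 called in each fit without 1 library were Birc3, Birc2 and Pmaip1 (1.88), which encodes the pro-death protein NOXA.

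The median gene span in the GRCr8 table was 18.4 kb for higher, 12.7 kb for lower and 21.4 kb for uncalled genes with a promoter entry. Ribosome biogenesis genes had 1 higher and 0 lower of 35 (median log2 fold change 0.23), the call not made in each fit without 1 library, yet 14 of them had all NM values above all PBS values, beside 15.2% of all genes tested. Reads of strand-overlapping neighbours could not be separated here, since the strand of the libraries is not given in the sources used here.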
